A study of Mus musculus with 6 samples.

Results

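The genes described here are 10 imprinted genes of the mouse, the noncoding RNA gene H19, the growth factor gene Igf2 and 8 genes with which they are grouped as an imprinted gene network. Their symbols, H19, Igf2, Igf2r, Dlk1, Meg3, Peg3, Mest, Cdkn1c, Grb10 and Plagl1, were looked up in the deposited expression table, and all 10 were among its 26231 genes. Mouse embryonic fibroblasts (MEFs) of the FVB strain, from embryos of about 14 days, carried Nf2 alleles flanked by loxP sites, which Cre recombinase removes. All cells had been immortalized with SV40 large T antigen and were kept for 24 h without serum before RNA extraction. The MEF WT (control) cells, called MEF Nf2fl/fl in the study, received a control lentivirus, and the MEF Nf2 KO cells (MEF Nf2-/-) received a lentivirus with Cre. Each line gave 3 libraries with replicate numbers 1, 2 and 3, and nothing states that replicates came from separate cultures, so p-values measure only the spread between these libraries.

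An imprinted gene is transcribed mainly from the copy of a single parent, because methylation laid down in the egg or sperm marks the parental copies differently. Such genes often lie in clusters under a shared control region, as H19 and Igf2 do, and their products act on fetal growth. Many of them are abundant in the embryo and are turned down after birth. The values here add up both parental copies, so they show the amount of RNA and not the copy it came from.

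Nf2 itself, the gene for Merlin, lay between 13.1 and 14.3 RPKM in the control libraries and between 12.9 and 15.4 RPKM in those labelled MEF Nf2 KO. RPKM corrects the reads of a gene for its exon length and for the size of the library. The RNA level over the whole gene, which does not show single exons, thus did not set the lines apart, and the second line is called by its label throughout. The depth inferred from the values was 13399775 to 72787040 reads per library. The 10 fibroblast markers summed to 2800 to 3620 RPKM in the controls and 1990 to 2620 RPKM in the other line, led by Vim, although Pdgfra was at 0.657 to 1.42 RPKM and Thy1 at 1.85 to 3.64 RPKM in the second line. Of these 10 markers 3 were lower at an adjusted p under 0.05 (limma), beside 0.578% of all genes tested. Markers of other cells were far lower. The sum over the list reached at most 7.63 RPKM in any library for skeletal muscle (led by Acta1), 20.7 RPKM for cartilage and fat (Sox9), 9.65 RPKM for macrophages and blood (Cd68), and 4.67 RPKM for endothelium and epithelium (Kdr). The part of these markers in the results below was not tested.

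H19 lies on chromosome 7 at chr7:142575529-142578143 of GRCm38, minus strand, and gives a spliced RNA without a protein from the maternal copy. The exons of H19 also hold the precursor of miR-675, whose mature forms are printed here because they are cut from the RNA that was measured. They come from RefSeq (GRCm38.p6), at chr7:142577112-142577133 for the 5p form and chr7:142577078-142577099 for the 3p form, and the capitals mark the seed, bases 2 to 8.
mmu-miR-675-5p: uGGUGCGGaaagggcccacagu
mmu-miR-675-3p: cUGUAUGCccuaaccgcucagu
The mature miRNAs themselves were not measured in these libraries.

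H19 stood at 105, 44.3 and 123 RPKM in control replicates 1, 2 and 3 (mean 90.7 ± 41.2, SD, n = 3). It stood at 7.30, 3.01 and 8.42 RPKM in the MEF Nf2 KO-labelled libraries (mean 6.25 ± 2.85, SD, n = 3). The highest of these 3 values was well under the lowest control value, so the lines did not overlap. Within replicate numbers 1, 2 and 3 the control library held 14.3, 14.7 and 14.6 times as much H19 RNA as its partner. The ratio was thus nearly the same at each number, although the level of H19 itself differed between numbers. The difference was -3.63 (standard error 0.47) on the log2(RPKM + 1) scale, where low genes appear to change less than they do. Its mean level exceeded that of 96.0% of the 11067 genes tested in the control line and of 44.1% in the other line. In bulk RNA, fewer cells that make a transcript and less of it per cell cannot be told apart.

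Igf2 lies 72.6 kb from H19 at chr7:142650766-142666816, on the same strand, and encodes insulin-like growth factor 2, a fetal growth factor made from the paternal copy. Its values were 2.45, 2.03 and 3.70 RPKM in the control libraries and 0.406, 0.172 and 0.889 RPKM in those labelled MEF Nf2 KO. Every value of the second line was under every control value. The means were 2.73 ± 0.871 and 0.489 ± 0.366 RPKM (SD, n = 3 each), and the log2(RPKM + 1) difference was -1.33 (standard error 0.23). The control libraries held 6.05, 11.8 and 4.17 times the RPKM of their partners at replicate numbers 1, 2 and 3, a wider scatter than for H19. In the Igf2 row the inferred reads were 41.8, 18.9 and 370.3 in the libraries labelled MEF Nf2 KO, so the first pair of values rests on few reads. Of the 31-base stretches of Igf2, 63.1% also occur in other gene models. The one sharing most is Gm49394, which reads through Igf2 and was listed at no more than 0.00793 RPKM, and reads from shared stretches cannot be told apart by sequence.

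An intron of Igf2 holds miR-483, and the last of its 4 RefSeq promoters holds a match to GGAATG, the letters read by TEAD factors, through which Nf2 is known to act. The miR-483 forms (chr7:142654968-142654989 for 5p and chr7:142654932-142654952 for 3p, minus strand) are shown with the seed in capitals, and the promoter, the 250 bases before the start (chr7:142657497-142657746, minus strand), with the match in capitals.
mmu-miR-483-5p: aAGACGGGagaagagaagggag
mmu-miR-483-3p: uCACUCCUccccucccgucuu
Igf2 promoter 4: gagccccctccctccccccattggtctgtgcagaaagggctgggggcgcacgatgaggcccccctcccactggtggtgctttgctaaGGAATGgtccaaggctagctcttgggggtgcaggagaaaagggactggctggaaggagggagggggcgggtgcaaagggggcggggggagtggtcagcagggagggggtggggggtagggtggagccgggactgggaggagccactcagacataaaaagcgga
Searched on both strands, these letters were in 3 of the 4 Igf2 promoters and in 12.6% of the 32851 RefSeq promoters of the same length, and a match is a string of letters and not a site shown to be bound. Promoters were found for 8 of the 10 genes, 15 in all. Among the genes other than Igf2, Peg3 alone held these letters, and the promoters of Dlk1 and Meg3 did not. The part of TEAD factors in these values was not tested.

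H19 and Igf2 were both lower, but not by the same factor. The difference of H19 minus Igf2 on the log2(RPKM + 1) scale was 4.94, 3.91 and 4.72 in the control libraries and 2.56, 1.78 and 2.32 in those labelled MEF Nf2 KO. The 2 ranges did not overlap, and the means of 4.52 ± 0.544 and 2.22 ± 0.403 (SD, n = 3 each) differed by -2.30. The size rests in part on the pseudocount, since with 0.1 in place of 1 the mean fell by 1.42. The plain RPKM ratio of H19 to Igf2 was 42.7, 21.9 and 33.2 in the controls and 18, 17.5 and 9.47 in the second line. H19 thus remained above Igf2 in each of the 6 libraries.

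Cdkn1c, which encodes the CDK inhibitor p57 and is expressed from the maternal copy, lies 791.5 kb beyond Igf2 at chr7:143458339-143461050, in the neighbouring imprinted domain. It read 35.0, 11.4 and 39.3 RPKM in the controls and 30.4, 8.98 and 32.8 RPKM in the MEF Nf2 KO-labelled libraries. The lines overlapped widely, and the log2(RPKM + 1) difference was -0.26 (standard error 0.61). At each replicate number the second line was slightly lower, at 0.867, 0.785 and 0.835 of the control. Replicate 2 was the low library of both lines. Cdkn1c shares 27.2% of its 31-base stretches with other gene models, most of all the opposite-strand model Gm44732, which was listed at no more than 0.158 RPKM.

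Within 500 kb of H19 and Igf2 the table held 25 genes, of which 9 were tested. Mrpl23, the tested gene nearest to H19 and one of the mitochondrial ribosome, read 2.20 to 2.81 RPKM in the controls and 2.19 to 2.48 RPKM in the second line, a log2(RPKM + 1) difference of -0.05 (adjusted p = 0.981, limma). For Cd81, a tetraspanin gene on the far side of Igf2, the difference was -0.09 (adjusted p = 0.975, limma), and for Tssc4 it was -0.01 (adjusted p = 0.998, limma). Lsp1, which encodes an actin-binding protein and was picked out after its values were seen, had 3.69, 1.28 and 4.13 RPKM in the controls against 1.55, 0.371 and 1.90 RPKM. Its difference of -0.81 did not pass without the replicate number as a block (adjusted p = 0.614, limma) and did so with it (adjusted p = 0.00615). With the block H19, Igf2 and Lsp1 were past the threshold, 3 of the 9 tested genes beside 7.53% of all genes, and without it H19 alone was, beside 1.06% of all genes. H19 and Igf2 are themselves among the genes chosen for this contrast.

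**Figure D1:**
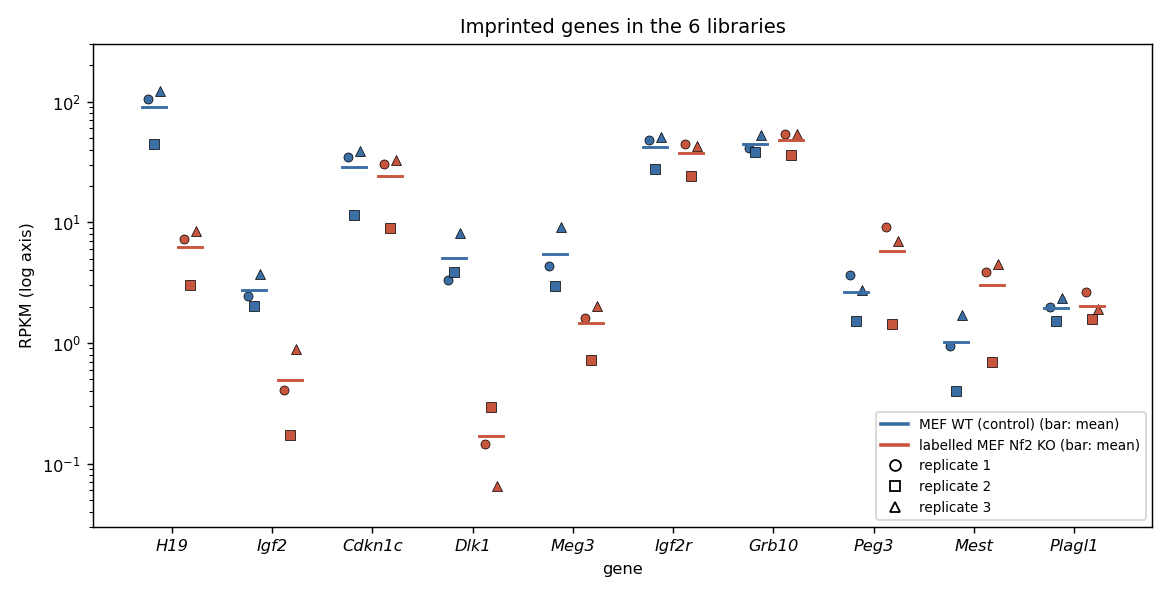
RPKM (log axis) of the 10 imprinted genes in each library, with MEF WT (control) in blue and the libraries labelled MEF Nf2 KO in red; circles, squares and triangles are replicates 1, 2 and 3, and bars are means. H19, Igf2, Dlk1 and Meg3 do not overlap between the lines, and the squares (replicate 2) are the lowest points of both lines for every gene but Dlk1.

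The second cluster lies on chromosome 12. Dlk1 (chr12:109452823-109463336, plus strand) encodes a membrane protein that restrains differentiation of fat cell precursors, and is expressed from the paternal copy. Meg3 begins 77.7 kb further on (chr12:109541001-109571726, plus strand) and gives a long noncoding RNA from the maternal copy. Their first RefSeq promoters, the 250 bases before each start, are shown because both genes were low in the same libraries (chr12:109452573-109452822 and chr12:109540746-109540995, GRCm38.p6). Capitals mark TATAAA, read on both strands, the letters of a TATA box, which 12.4% of all promoters hold and which the Dlk1 window does not.
Dlk1 promoter 1: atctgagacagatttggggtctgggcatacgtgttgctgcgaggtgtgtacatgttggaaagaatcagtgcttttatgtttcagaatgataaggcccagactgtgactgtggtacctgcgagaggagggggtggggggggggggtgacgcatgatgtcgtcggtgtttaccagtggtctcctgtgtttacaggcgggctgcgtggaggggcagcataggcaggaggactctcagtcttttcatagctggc
Meg3 promoter 1: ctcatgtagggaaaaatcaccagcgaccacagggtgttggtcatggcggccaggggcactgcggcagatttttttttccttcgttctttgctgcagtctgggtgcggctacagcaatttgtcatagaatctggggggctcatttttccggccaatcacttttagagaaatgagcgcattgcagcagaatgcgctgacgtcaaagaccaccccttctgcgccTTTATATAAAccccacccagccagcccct
The GC share was 54.8% in the first and 52.4% in the second.

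Dlk1 stood at 3.30, 3.88 and 8.10 RPKM in the control libraries and at 0.147, 0.293 and 0.0653 RPKM in those labelled MEF Nf2 KO. The means were 5.09 ± 2.62 and 0.168 ± 0.116 RPKM (SD, n = 3 each). The lines were far apart in every pair. The control libraries held 22.5, 13.2 and 124 times the RPKM of their partners at replicate numbers 1, 2 and 3. The low values rest on an inferred 14.9, 31.9 and 26.9 reads, which limits the precision of these ratios. On the log2(RPKM + 1) scale the difference was -2.31 (standard error 0.28), and the pseudocount weighs on values under 1. Dlk1 shared none of its 31-base stretches with another gene.

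Meg3 stood at 4.31, 2.97 and 9.11 RPKM in the controls and at 1.61, 0.721 and 2.03 RPKM in the MEF Nf2 KO-labelled libraries. Replicate 2 of the controls, the lowest, was still above the highest value of the second line. The means were 5.46 ± 3.23 and 1.45 ± 0.670 RPKM (SD, n = 3 each), with a log2(RPKM + 1) difference of -1.32 (standard error 0.37). The controls held 2.68, 4.12 and 4.48 times the RPKM of their partners. Exons of Meg3 carry miR-770 (chr12:109563710-109563731 for 5p) and miR-1906 (chr12:109544588-109544609), shown with the seed in capitals.
mmu-miR-770-5p: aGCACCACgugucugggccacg
mmu-miR-1906: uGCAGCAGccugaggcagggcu
Meg3 shares 11.4% of its 31-base stretches with other gene models, and the one sharing most, Gm26906 on the opposite strand, was listed at or next to 0 throughout.

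Dlk1 and Meg3 did not keep their proportion either. Dlk1 minus Meg3 on the log2(RPKM + 1) scale was -0.31, 0.30 and -0.15 in the controls and -1.18, -0.41 and -1.51 in the libraries labelled MEF Nf2 KO. The ranges did not overlap, and the mean fell by 0.98, or by 2.46 with a pseudocount of 0.1. In plain RPKM, Dlk1 was 0.765, 1.31 and 0.889 times Meg3 in the controls and 0.0913, 0.407 and 0.0321 times Meg3 in the second line.

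Meg3 is followed by Rian and Mirg, noncoding genes of the same strand that carry small nucleolar RNAs and miRNAs and are expressed from the maternal copy. Rian, 32.2 kb from Meg3, read 3.02, 2.01 and 7.55 RPKM in the controls and 1.17, 0.606 and 2.0 RPKM in the second line, without overlap. Its log2(RPKM + 1) difference of -1.10 (standard error 0.41) passed the threshold only with the replicate block (adjusted p = 0.0147 with the block and 0.417 without it, limma). Rian minus Meg3 varied little, from -0.40 to -0.24 in the controls and from -0.26 to -0.02 in the second line. Mirg, under the filter, was listed at 0.326, 0.202 and 0.867 RPKM against 0.129, 0.0427 and 0.220 RPKM, values that overlapped. Rtl1 stayed at no more than 0.0539 RPKM and Dio3 at no more than 0.519 RPKM. Of the 18 genes of the table within 500 kb of Dlk1 to Mirg, 4 were tested. Past the threshold were Dlk1 alone without the block, beside 1.06% of all genes, and Dlk1, Meg3 and Rian with it, beside 7.53% of all genes, and of these Dlk1 and Meg3 are among the genes chosen for this contrast. The remaining gene, Gm3379, had a difference of -0.56 (adjusted p = 0.688 without and 0.289 with the block, limma).

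The other 5 genes lie apart from these clusters. Igf2r, on chromosome 17 (chr17:12682406-12769664, minus strand), encodes the receptor that takes IGF2 up for degradation and is expressed from the maternal copy. It read 48.4, 27.7 and 51.0 RPKM in the controls and 44.9, 24.2 and 42.5 RPKM in the MEF Nf2 KO-labelled libraries. The lines overlapped, and the log2(RPKM + 1) difference was -0.19 (standard error 0.31). Airn, the noncoding gene that overlaps Igf2r on the other strand without sharing exon bases, was listed at 0.572 to 1.03 RPKM in the controls and 0.303 to 0.953 RPKM in the second line.

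Grb10 (chr11:11930508-12038683) encodes an adaptor protein that dampens insulin and IGF receptor signalling. Its values of 40.9, 38.4 and 53.0 RPKM in the controls and 54.2, 36.2 and 54.3 RPKM in the second line overlapped, with a difference of 0.12 (standard error 0.20) on the log2(RPKM + 1) scale. Plagl1 (chr10:13060504-13131694) encodes the zinc finger factor ZAC1, a regulator of other imprinted genes. It read 2.0, 1.52 and 2.34 RPKM against 2.62, 1.58 and 1.92 RPKM, a difference of 0.04 (standard error 0.17), and the sign of the pairs varied, with ratios of 1.31, 1.04 and 0.822 to the control. Neither gene set the lines apart.

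Peg3 (chr7:6703892-6730431), a paternally expressed zinc finger gene, read 3.65, 1.51 and 2.77 RPKM in the controls and 9.05, 1.44 and 6.94 RPKM in the MEF Nf2 KO-labelled libraries. At replicate numbers 1 and 3 the second line held 2.48 and 2.51 times the control, and at number 2 it held 0.955 times the control. The lines overlapped through replicate 2. The log2(RPKM + 1) difference was 0.72 (standard error 0.54).

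Mest (chr6:30723547-30748465), also known as Peg1, encodes an enzyme-like protein and is expressed from the paternal copy. It read 0.940, 0.399 and 1.71 RPKM in the controls and 3.84, 0.700 and 4.55 RPKM in the second line. At each replicate number the second line was higher, at 4.09, 1.75 and 2.66 times the control, while the lines overlapped through replicate 2. The difference was 0.88 (standard error 0.48) on the log2(RPKM + 1) scale. An intron of Mest holds miR-335 (chr6:30741314-30741336 for 5p), whose forms follow with the seed in capitals.
mmu-miR-335-5p: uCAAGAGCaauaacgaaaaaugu
mmu-miR-335-3p: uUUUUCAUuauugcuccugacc
Mest shares 912 exon bases with Copg2, a coat protein gene on the opposite strand that read higher, at 6.02 to 10.4 RPKM. The use of strand in the counting is not given in the sources used here, so reads from the shared bases cannot be assigned to either gene with certainty. For Copg2 the difference was 0.17 (adjusted p = 0.942, limma).

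**Figure D2:**
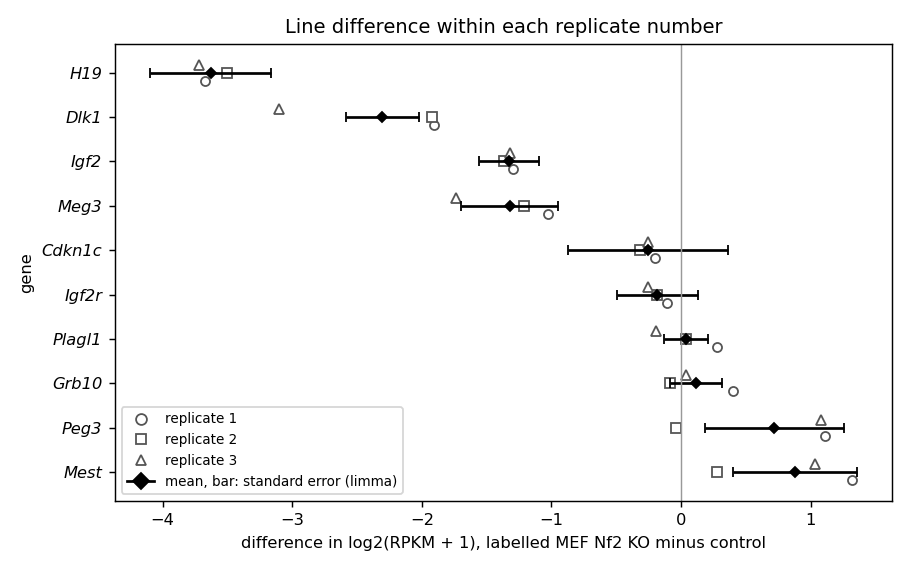
Difference in log2(RPKM + 1), libraries labelled MEF Nf2 KO minus control, within replicate numbers 1, 2 and 3 (open symbols) and their mean with its standard error from limma (black). H19 has its 3 symbols close together near -3.63, whereas Dlk1, Peg3 and Mest have 1 symbol far from the other 2.

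Over the 10 genes, H19, Igf2, Dlk1 and Meg3 lay lower in each of the 3 MEF Nf2 KO-labelled libraries than in any control, and the other 6 overlapped. Of all genes tested, 7.52% were lower without overlap in this way and 7.60% were higher. At an adjusted p under 0.05 (limma), Dlk1 and H19 were past the threshold, 2 of 10, both lower, where 1.06% of all genes tested were past it and 0.578% were past it and lower. With the replicate number as a block, Igf2 and Meg3 joined them, 4 of 10 and all lower, beside 7.53% of all genes, or 4.54% counting the lower ones. All 10 genes passed the filter of 1 RPKM in 3 libraries, Igf2 and Dlk1 through the controls alone. The 10 genes were selected on the RPKM differences of this same comparison, in which H19 and Igf2 were already known to be low, so these counts describe the choice and nothing is read from them. The call of the first 2 genes also depended on the libraries used, as did the count over all genes, 117 with all libraries. Without control replicate 1, or without replicate 1 or 3 of the second line, neither was past the threshold. In these fits 11, 10 and 18 of all genes were. Without control replicate 3 it was Dlk1 alone, among 10 of all genes. Without both libraries of replicate 2, Dlk1, H19 and Igf2 were lower and Mest and Peg3 higher past the threshold, among 484 of all 11067 genes. Without both libraries of replicate 1, or both of replicate 3, none of the 10 was, nor was any of all genes tested, although 578 and 556 genes had an unadjusted p under 0.05.

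In order of mean RPKM, the control line ran H19, Grb10, Igf2r, Cdkn1c, Meg3, Dlk1, Igf2, Peg3, Plagl1 and Mest, from 90.7 down to 1.02. Neighbours in this order overlapped between libraries except Cdkn1c and Meg3. The line labelled MEF Nf2 KO ran Grb10, Igf2r, Cdkn1c, H19, Peg3, Mest, Plagl1, Meg3, Igf2 and Dlk1, from 48.2 down to 0.168. There the one break without overlap was between Cdkn1c and H19. H19 moved from rank 1 to rank 4, Dlk1 from 6 to 10, and Mest from 10 to 6.

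A further comparison is that between replicate numbers, which go with a library mark in the labels. Number 3 also had the greatest depth (60979510 and 72787040 inferred reads). The 10 genes were chosen with earlier results of these data known, so the counts describe them and nothing more is read from them. With the line as a term in the model, the moderated F test of limma put 7 of the 10 genes past the threshold for the replicate number, beside 21.2% of all genes tested. Cdkn1c (adjusted p = 0.00313), H19 (0.00464) and Igf2r (0.00759) had the smallest adjusted p-values, followed by Igf2 (0.0209), Meg3 (0.0287), Mest (0.0368) and Peg3 (0.042). Dlk1, Grb10 and Plagl1 did not pass, at 0.456, 0.0754 and 0.152. Under quantile normalization 5 of the 10 genes passed, Mest and Peg3 no longer among them, beside 1826 of all 11067 genes. Cdkn1c and H19 passed with any single library left out. Without replicate 2 of the second line these 2 genes were the only ones of the 10 past the threshold, among 212 of all genes, and without control replicate 2 there were 4, among 213 of all genes. Without control replicate 3 there were 4, among 1646 of all genes. Grb10 passed without control replicate 1 and without replicate 1 of the second line, among 2037 and 1580 of all genes. Dlk1 passed without replicate 3 of the second line, among 1705 of all genes.

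Replicate 2 was the lowest library in both lines for 9 of the 10 genes, Dlk1 being the exception, beside 39.5% of all genes tested. It was so for the same 9 genes after quantile normalization, where 29.9% of all genes did so, and after median centring, where 30.3% did. Compared with the mean of replicates 1 and 3, replicate 2 was lower by 1.66 on the log2(RPKM + 1) scale for Cdkn1c, the CDK inhibitor gene, where the median gene tested was lower by 0.08. The corresponding differences were -1.30 for Peg3, -1.24 for H19, -1.16 for Mest, -0.82 for Igf2r and -0.80 for Meg3. For Igf2, Grb10, Plagl1 and Dlk1 they were -0.44, -0.42, -0.33 and -0.07. For H19 and Cdkn1c the drop was of like size in both lines, -1.34 and -1.14 for H19 in the controls and the second line, and -1.62 and -1.71 for Cdkn1c. For Peg3 and Mest it was -0.74 and -0.71 in the controls against -1.87 and -1.61 in the second line, a gap between lines that was not tested. Some fibroblast markers moved with the replicate number as well, 5 of 10 past the threshold of the F test, beside 21.2% of all genes tested. Of these, Col1a1, Col1a2, Col3a1 and Pdgfrb were lowest in replicate 2 of both lines, while Thy1 was highest there. Vim and Fn1 did not pass (adjusted p = 0.320 and 0.921, limma). Of the muscle markers, Acta1, under the filter, was highest in replicate 2, at 6.25 RPKM in the controls and 2.57 RPKM in the second line against no more than 0.606 RPKM elsewhere, and Tnnc1, the muscle marker that was tested, did not pass (adjusted p = 0.137, limma). Kdr, the tested marker of endothelium, did pass (adjusted p = 0.0061, limma) and was highest in replicate 2 of both lines, at 3.76 RPKM against 1.32 and 1.62 RPKM in the controls and 4.39 RPKM against 1.37 and 1.74 RPKM in the second line. The part of these markers in the result was not tested.

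**Figure D3:**
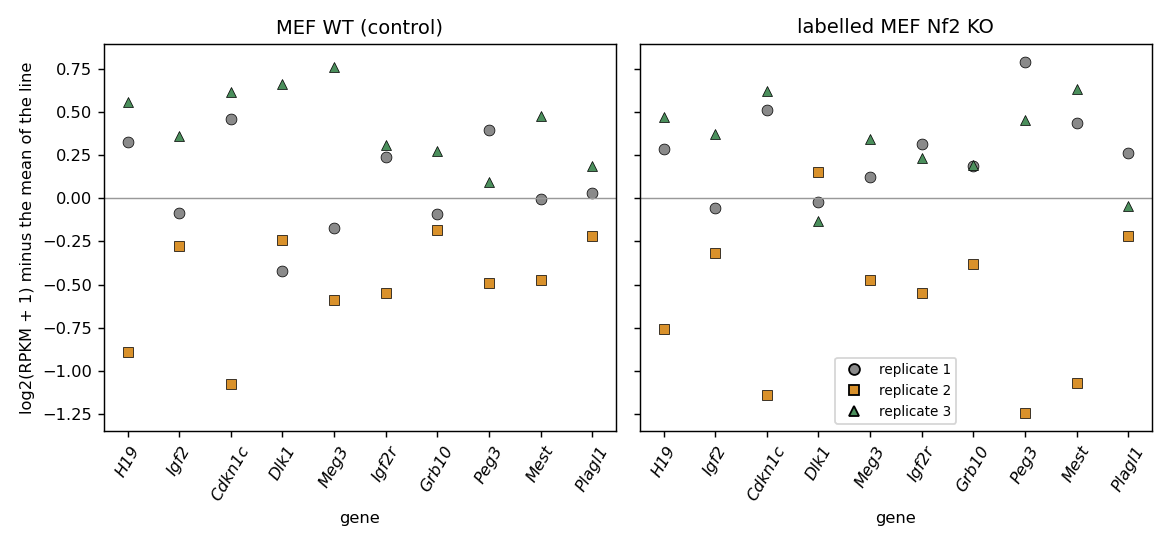
Deviation of each library from the mean of its line, in log2(RPKM + 1), for the 10 genes in the control (left) and the line labelled MEF Nf2 KO (right). The squares of replicate 2 lie lowest in both panels for every gene but Dlk1, and reach furthest down for Cdkn1c, H19 and, on the right, Peg3 and Mest.

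Of 66 other genes listed as imprinted, called other imprinted genes here, 58 were in the table and 31 were tested. The list was written from general knowledge, and whether each gene is imprinted in these fibroblasts was not measured. Without the block 2 of them were past the threshold, 1 in each direction, beside 1.06% of all genes, and with it 6 were, 3 lower and 3 higher, beside 7.53% of all genes. The median log2(RPKM + 1) difference of the 31 genes was -0.01, as was that of all genes tested, and 16 of them were lower and 15 higher. Dcn, which encodes the collagen-binding proteoglycan decorin, was lower, with 2.57, 1.6 and 4.01 RPKM in the controls against 0.133, 0.0266 and 0.112 RPKM, a difference of -1.72 (standard error 0.24, adjusted p = 0.0348, limma). Herc3, a ubiquitin ligase gene, was higher, with 1.57, 1.15 and 0.971 RPKM against 3.28, 2.99 and 2.76 RPKM, a difference of 0.85 (standard error 0.13, adjusted p = 0.0437, limma). Neither gene overlapped between the lines, but Dcn passed the filter through the control libraries alone, so it could enter the test only by being higher there. Herc3, at 0.971 RPKM in control replicate 3, would not have passed the filter on the controls alone and did so through the second line, where it was higher. Without control replicate 2 only Dcn passed, among 142 of all genes. Without any other single library neither did, where 10 to 92 of all genes passed. Past the threshold with the block were also Rian and Pon3, a paraoxonase gene, among the lower ones (Pon3 by -0.46, adjusted p = 0.0309, limma). Cobl, an actin nucleator gene next to Grb10, and the amino acid transporter gene Slc38a4 were higher by 0.44 and 0.42 (adjusted p = 0.0414 and 0.0184 with the block, limma).

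The 3 other imprinted genes with the highest levels, Gnas, Cd81 and Nap1l4, had means of 86.7, 83.3 and 38.0 RPKM in the controls and 82.9, 78.0 and 37.2 RPKM in the second line. Their differences of -0.07, -0.09 and -0.03 were each smaller than their standard errors. In the Cdkn1c domain, Osbpl5 had a difference of -0.11 (adjusted p = 0.928, limma), while Kcnq1, Kcnq1ot1, Phlda2, Slc22a18, Ascl2 and Tspan32 were under the filter and overlapped between the lines. Beside Peg3, the imprinted genes Usp29 and Zim1 were listed at no more than 0.0612 and 0.103 RPKM, and Ddc, next to Grb10, at no more than 0.0372 RPKM.

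**Figure D4:**
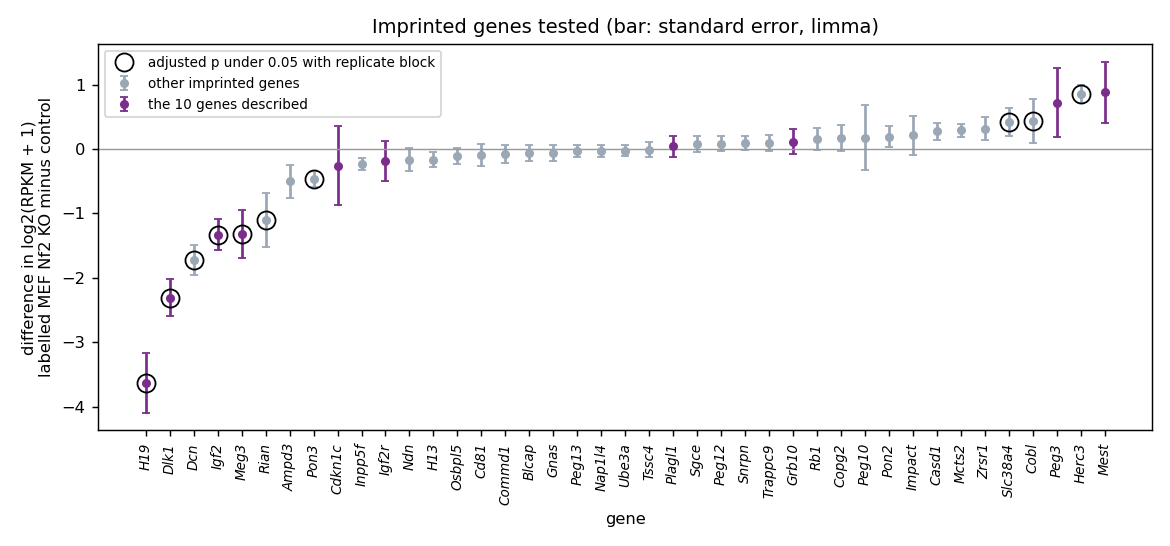
Difference in log2(RPKM + 1), libraries labelled MEF Nf2 KO minus control, for the 10 genes described (purple) and the 31 other imprinted genes tested (grey), sorted by size, with standard errors from limma; rings mark genes past the threshold with the replicate block. H19, Dlk1, Dcn, Igf2, Meg3 and Rian stand at the lower end, and most of the other imprinted genes lie near 0.

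The genes listed as setting, keeping, reading or removing imprints include those of DNA methyltransferases, TET enzymes that take methylation away, zinc finger proteins that protect marked sites, and Polycomb, histone methyltransferase and other chromatin proteins, 20 in the list, 19 in the table and 16 tested. None was past the threshold in limma, without the block or with it, where 1.06% and 7.53% of all genes were, and 1 had an unadjusted p under 0.05, beside 1097 of the 11067 genes tested. Differences ranged from -0.11 to 0.30 on the log2(RPKM + 1) scale. Trim28, a corepressor of the protected sites, had means of 59.5 and 59.5 RPKM in the controls and the second line, Dnmt1, the maintenance methyltransferase, 51.5 and 51.5 RPKM, and its partner Uhrf1 37.7 and 38.4 RPKM. All 3 overlapped between the lines. Ctcf and Zfp57, whose products bind the H19 control region and other imprinted control regions, were looked at after their values were seen. They were picked because each was higher in the second line without overlap, as 7.60% of all genes tested were. The differences were small, 0.09 for Ctcf (adjusted p = 0.898) and 0.26 for Zfp57 (adjusted p = 0.295, limma). Enzyme activity and methylation were not measured here.

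Genes that act on IGF2 or bind its RNA made up a list of 10, of which 9 were in the table and 8 were tested. None passed without the block (3 at an unadjusted p under 0.05, beside 1097 of the 11067 genes tested), where 1.06% of all genes did. With it there were 2, Hmga2 and Irs1, beside 7.53% of all genes. Without both libraries of replicate 2, and without the block, these and the IGF1 receptor gene Igf1r passed, among 484 of all 11067 genes. Hmga2, a chromatin protein gene of growing cells, had 64.7, 123 and 66.5 RPKM in the controls and 34.6, 77.1 and 29.0 RPKM in the second line. The lines overlapped, yet each pair was lower in the second line, by -0.91 on average (adjusted p = 0.0114 with the block and 0.559 without it, limma). Replicate 2 was the highest library of each line for Hmga2. Irs1, the docking protein of the IGF1 and insulin receptors, read 6.65, 8.85 and 7.64 RPKM against 11.5, 11.2 and 11.6 RPKM, a difference of 0.52 (adjusted p = 0.0299 with the block and 0.117 without it, limma). Igf2bp2, the second highest gene of this list, had means of 22.1 and 18.6 RPKM and a difference of -0.23 (adjusted p = 0.441, limma). Irs2, next in level in the controls though not in the second line and another docking protein gene, had means of 8.78 and 10.6 RPKM. Its difference was 0.25 (adjusted p = 0.888, limma).

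The genes whose levels most resembled those of H19 over the 6 libraries were Psap, Oaf, Chst1, Pdgfra and Col6a3, with Pearson correlations of 0.997, 0.994, 0.994, 0.988 and 0.988 among 7023 genes of at least 5 RPKM on average. Pdgfra, the PDGF receptor gene typical of fibroblasts, read 12.3, 5.22 and 11.7 RPKM in the controls against 1.42, 0.657 and 0.962 RPKM, and the collagen VI gene Col6a3 read 19, 13.1 and 21.5 RPKM against 1.08, 0.529 and 1.23 RPKM. Both, like H19, had replicate 2 as the lowest library of each line. Most like Igf2 were Pak1, Spred2, Crabp1, Gnl1 and Prdx4, with correlations of 0.994, 0.986, 0.983, 0.982 and 0.981. Crabp1, a retinoic acid binding protein gene, read 104, 65.9 and 141 RPKM against 1.72, 0.84 and 5.02 RPKM, so replicate 3 was the highest of each line, as for Igf2. These 6 points share 2 lines and 3 replicate numbers, so the correlations are a description and carry no test.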

How the data were processed

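RNA from 6 MEF libraries, 3 per line, was sequenced by GENEWIZ. The authors deposited 1 table of 26231 genes, whose values are taken here as RPKM, and the aligner and counting tool are not given in the sources used here. The submitters' processing notes name the genome build mm10. The unit was inferred. With GENCODE vM21 exon lengths, 86.4% to 87.8% of the values worth 20 reads or fewer were whole reads within 0.1 read, against 13.2% to 18.6% at other depths, and the library sums, 250088 to 263424, were unlike CPM or TPM. The inferred depths of 13399775 to 72787040 reads make low values less precise, most of all outside replicate 3.

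Values were set to log2(RPKM + 1), genes reaching 1 RPKM in 3 or more libraries were kept (11067), and lines were compared with limma 3.58.1 in R 4.3.3 (trend and robust settings, Benjamini-Hochberg over all genes tested, threshold 0.05, two-sided, no covariate). The replicate number was tested with a moderated F test with the line as a term. The 10 genes and all lists were chosen with earlier results of these data known. Same-numbered libraries deviated together from their line means, with correlations of 0.552, 0.819 and 0.516 across genes. The 3 deviations of a line cancel out, so a shift shared by replicate 2 alone also raises the other correlations. These values thus cannot decide whether numbers 1 and 3 are pairs. The numbers, which the labels give, were taken as pairs, and the fit with a replicate block is given where the call changes.

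Named genes are, by rule, the 10 genes, Nf2, genes of the 3 lists (other imprinted, imprint maintenance, IGF2 receptor and RNA-binding) past the threshold in either fit, the 3 highest of each, list genes of the same clusters, the 5 most correlated with H19 and with Igf2, and the highest of each marker list. Other genes (neighbours of the clusters, overlapping gene models, Ctcf, Zfp57, Igf1r, further markers and imprinted genes under the filter) were named after their values were seen. The fits were tested on simulated data with known changes. The alternatives were the block, a pseudocount of 0.1, a filter at 5 RPKM or none, median centring or quantile normalization, plain limma settings, and each library or replicate number left out. Coordinates are those of GENCODE vM21 (GRCm38), and sequences are those of RefSeq (GRCm38.p6), where H19 and Cdkn1c have no promoter entry. Figures were drawn with matplotlib 3.10.9.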

Additional observations from a re-analysis of the deposited data

How the results depend on the processing

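The counts depended on the number of genes tested and on the libraries. Without a filter 9 of 26231 genes, none of the 10 genes described and none of the other imprinted genes were past the threshold between the lines (1937 genes at an unadjusted p under 0.05), and 0 genes were for the replicate number (5077 unadjusted). With a filter of 5 RPKM there were 63 genes in all, 1 of the 4 described genes still tested (H19) and 0 of 15 other imprinted genes, and 3 of 4 described genes for the replicate number, beside 1805 of 7117 genes. With the replicate block there were 833 genes instead of 117, 4 described genes, 6 other imprinted genes and 2 IGF2 receptor and RNA-binding genes, and the block changed no call among the imprint maintenance genes. A pseudocount of 0.1 left 1 other imprinted gene, Dcn, and gave -1.42 for H19 minus Igf2 (main value -2.30) and -2.46 for Dlk1 minus Meg3 (main value -0.98). Quantile normalization added Igf2 to the described genes past the threshold.

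Leaving out single libraries or replicate numbers gave 0 to 484 genes between the lines, 0 to 5 described genes, 0 to 2 other imprinted genes, 0 to 3 IGF2 receptor and RNA-binding genes and 0 imprint maintenance genes. The lowest counts of all genes came without both libraries of replicate 1 or 3, and the highest without both of replicate 2. For the replicate number it gave 212 to 2037 genes and 2 to 7 described genes. H19 minus Igf2 lay between -2.61 and -2.08, and Dlk1 minus Meg3 between -1.29 and -0.74. Where a line is left with fewer libraries, its spread is assumed to be that of the other line. H19 stayed between -4.08 and -3.25 under 16 alternatives, past the threshold in 9, and Dlk1 between -4.25 and -1.91 under 15, past it in 9. Igf2, Meg3, Peg3 and Mest kept their direction under all alternatives that tested them, and Cdkn1c, Igf2r, Grb10 and Plagl1, which did not pass under any, changed sign under some. The cause of these shifts was not tested. Dlk1 and Igf2 in the line labelled MEF Nf2 KO rest on the fewest reads.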

Other observations

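Among the 27 other imprinted genes under the filter, 5 were picked out after their values were seen because the lines did not overlap, 3 lower and 2 higher in the second line (11.1% and 7.41%). Of all 15164 genes under the filter, 5.34% were lower and 4.08% higher in this way. The values rest on few reads, with 3.0 inferred reads for each of Gatm, Tfpi2 and Zdbf2 in control replicate 1. Gatm, which encodes an enzyme of creatine synthesis, was listed at 0.0743, 0.0703 and 0.201 RPKM in the controls and at 0.608, 0.639 and 0.547 RPKM in the MEF Nf2 KO-labelled libraries. Asb4 was listed at 0.0805 to 0.158 RPKM and 0.160 to 0.267 RPKM. Tfpi2, a protease inhibitor gene, was listed at 0.128, 0.453 and 0.365 RPKM in the controls and at 0 in the other 3 libraries. Rasgrf1 and Zdbf2 were also lower in the second line, each at no more than 0.137 RPKM in any library. None of these genes entered a test.

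Of the 10 fibroblast markers, Pdgfra, S100a4 and Fn1 were lower in the MEF Nf2 KO-labelled libraries, by -2.35, -1.21 and -0.63 on the log2(RPKM + 1) scale (adjusted p = 0.0329, 0.0329 and 0.039, limma). S100a4, a calcium-binding protein gene of motile fibroblasts, had 723, 612 and 718 RPKM in the controls against 271, 256 and 365 RPKM. Fn1, the fibronectin gene, had 456, 477 and 491 RPKM against 307, 314 and 295 RPKM, and unlike H19 it did not differ past the threshold between replicate numbers (adjusted p = 0.921, limma). With the replicate block 5 of the 10 markers were lower past the threshold, beside 4.54% of all genes tested.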
